A study of Mus musculus with 2 samples.

Results

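Mature neutrophils with little Il1b RNA were described in single-cell libraries from the Achilles tendon enthesis, the site where the tendon inserts into bone. They were selected cell by cell. Kept barcodes had 300 genes or more, and no more than 20% of their UMIs (unique transcript molecules) came from mitochondrial genes. A kept cell belonged to the class when S100a8 and S100a9 made up at least 3% of its UMIs, Camp, Ngp and Ltf under 0.5%, C1qa, C1qb and C1qc under 0.1% and Il1b under 0.5%. The class held 1666 of 25430 kept cells, 636 of 14483 in the tail suspension (TS) library and 1030 of 10947 in the non-tail suspension (NTS) library. The measured levels of these 9 genes chose the cells, so they are given only as a description, and none of them supports a result.

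The mice were of the SKG strain, whose mutated Zap70, a kinase of T cell receptor signalling, makes them prone to autoimmune joint disease. In the tail suspension group the hindlimbs were unloaded by hanging the mouse by its tail. The non-tail suspension group kept its hindlimb loading. Both groups share the strain, and each is represented by 1 library. The number of animals behind a library, their age, the length of suspension and any induction of arthritis are not given in the sources used here. With 1 library per group no difference can be tested. Every interval is an exact 95% interval that covers counting error only, and the spread between animals is not known.

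Neutrophils are short-lived granulocytes made in bone marrow. During maturation they first make the proteins of azurophil granules, then those of specific granules such as Camp, Ngp and Ltf, and last those of gelatinase granules, after which they enter the blood with the chemokine receptor Cxcr2 and the growth factor receptor Csf3r on their surface. In inflamed tissue they transcribe cytokines such as Il1b, chemokines such as Cxcl2 and genes induced by NF-kB and by interferons. Interferon signals reach such genes through transcription factors that bind short promoter motifs.

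There were 15545 barcodes with 166606774 UMIs in the TS library and 11430 barcodes with 121868851 UMIs in the NTS library. Any step that equalised their depth is not given in the sources used here. A total of 47 barcodes occurred in both libraries, and 1 TS cell and 3 NTS cells of the class carried such a barcode. Levels are in CPM, the UMIs of each gene summed over the class cells of a library and scaled to the same total in both libraries. They rest on 4002293 UMIs with tail suspension and 4257187 without.

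The class was a larger part of the mature neutrophils in the tail suspension library, and at this Il1b limit a smaller part of all its kept cells. It made up 4.39% (95% Clopper-Pearson interval 4.06 to 4.74) of kept cells with tail suspension and 9.41% (8.87 to 9.97) without. Among mature neutrophils, which also include the cells with at least 0.5% Il1b, it was 70.0% (66.9 to 72.9) with tail suspension, 636 of 909 cells, and 23.7% (22.5 to 25.03) without, 1030 of 4339. With an Il1b limit of 0.25% the share of kept cells was 2.91% in TS and 2.95% in NTS, so its gap rests on the limit chosen. The share of mature neutrophils was then 46.3% in TS and 7.44% in NTS. Cells with at least 0.5% Il1b, called Il1b-high here, numbered 273 in TS and 3309 in NTS. Cells with more Camp, Ngp and Ltf, called immature here, numbered 611 in TS and 208 in NTS. With every cell thinned to 500 UMIs, which evens out depth, the class was 67.7% of mature neutrophils in TS and 30.1% in NTS. All shares are of cells recovered after digestion and dead cell removal.

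**Figure D1:**
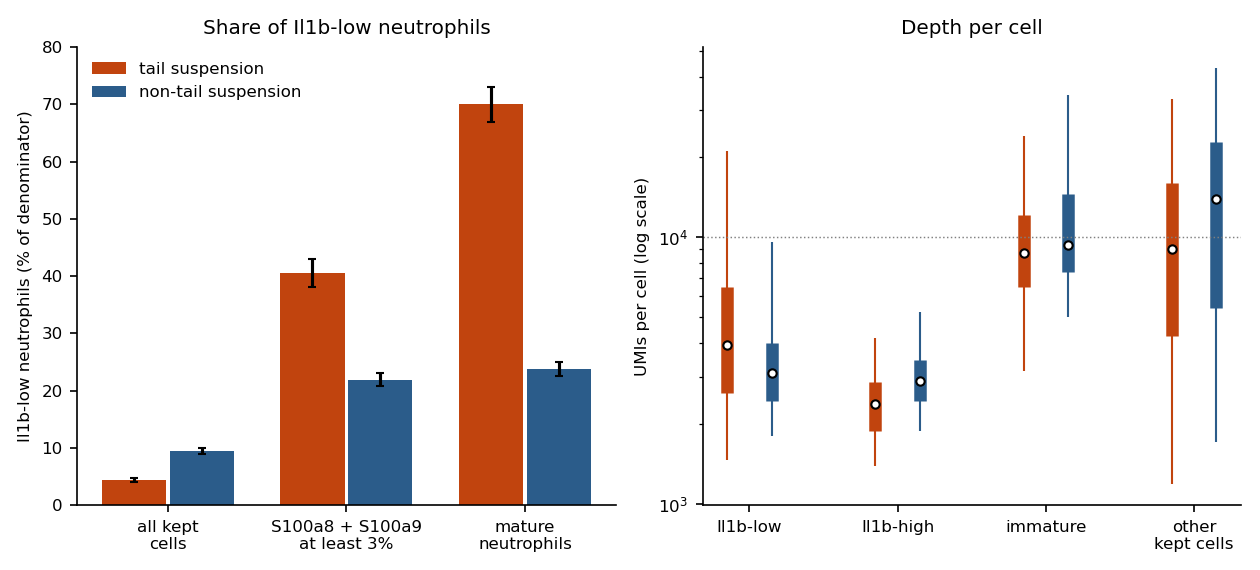
Left, share of Il1b-low neutrophils (%) in 3 denominators, with exact 95% intervals for counting error, in the tail suspension and the non-tail suspension library. Right, UMIs per cell (log scale) by class and library, where points are medians, thick bars run from the 25th to the 75th percentile and thin lines from the 5th to the 95th, and the dotted line marks 10000 UMIs. Il1b-low cells were 70.0% of mature neutrophils with tail suspension and 23.7% without, and their upper range of depth passed 10000 UMIs with tail suspension.

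Many cells lay close to the Il1b limit. Between 0.4% and 0.5% Il1b there were 83 TS cells and 328 NTS cells inside the class, and between 0.5% and 0.6%, just outside, 65 TS cells and 314 NTS cells. At the S100a8 and S100a9 limit, 26 TS cells and 74 NTS cells stood between 3% and 4%, and 33 TS cells and 101 NTS cells between 2% and 3% outside it. The class is thus a range on a continuous scale. Median Il1b within the class was 0.176% of UMIs with tail suspension and 0.325% without, and the S100a8 and S100a9 median was 26.4% in TS and 12.8% in NTS. No Il1b UMI was seen in 53 cells with tail suspension and in 27 without. A UMI of Camp, Ngp or Ltf was found in 358 TS cells and 245 NTS cells, and 21 TS cells and 3 NTS cells had between 0.4% and 0.5%, just inside that limit. The class therefore sat lower on the Il1b scale and higher on the S100 and granule gene scales in the tail suspension library, and each comparison of the libraries below carries this difference.

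The marker genes that the rule did not use were present. At least 1 UMI of Retnlg, a resistin-like secreted protein of granulocytes, Cxcr2 or Csf3r was found in 98.0% of the cells with tail suspension and in 98.3% without. In cells thinned to 500 UMIs, which removes differences in depth, this was 87.6% with tail suspension and 79.6% without. In the kept cells under the S100 limit, the thinned share was 1.56% with tail suspension and 10.2% without. Unthinned, Retnlg had a UMI in 90.7% of class cells with tail suspension (median depth 3944 UMIs) and in 77.7% without (3096), against 9.90% of TS cells (9002) and 18.7% of NTS cells (13880) under the S100 limit. The label of mature neutrophil was not contradicted by Retnlg, Cxcr2 and Csf3r. Granulocyte progenitor and cell cycle genes go against it for a part of the class, as they were higher in all class cells than in Il1b-high cells (below).

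A minority of deep cells carried a large part of the UMIs. More than 10000 UMIs were found in 85 class cells with tail suspension, holding 45.2% of the class's UMIs, and in 49 cells without, holding 23.4%. The 10 fibroblast or tenocyte markers, led by lubricin (Prg4), exceeded 1% of UMIs in 114 cells with tail suspension and 22 without. Summed, these markers were at 17947 CPM with tail suspension and 5514 CPM without, and every one of the 10 was measured. In thinned cells Prg4 had a UMI in 58.6% of class cells with tail suspension and 7.67% without, against 58.7% of TS cells and 17.5% of NTS cells under the S100 limit. Leaving out cells above either limit leaves 485 cells with tail suspension and 970 without, and the fibroblast sum is then 3112 CPM in TS and 1375 CPM in NTS. These are called the trimmed cells, a choice made after seeing the data. Results are for all class cells unless the trimmed cells are named, and not every result is given for both. The cells with the highest doublet scores, taken at the rate expected for each library, included 115 class cells with tail suspension and 117 without, and the part of doublets in the deep cells was not tested.

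Markers of other cell types summed to lower levels in all class cells. The 10 macrophage markers summed to 906 CPM with tail suspension and 984 CPM without. They include C1qa, C1qb and C1qc, which the rule limits, so this sum is held down by the choice of cells. The 9 monocyte or MHC class II markers summed to 1561 CPM in TS and 2397 CPM in NTS. In the trimmed cells the monocyte or MHC class II markers were at 926 CPM in TS and 1417 CPM in NTS, which in NTS is close to the fibroblast sum. T or innate lymphoid markers reached 159 CPM in TS and 264 CPM in NTS, and B cell markers 53.0 CPM in TS and 62.7 CPM in NTS. Granulocyte progenitor markers, such as Mpo and Elane, were at 151 CPM in TS and 706 CPM in NTS, and at 24.2 CPM in TS and 48.7 CPM in NTS in the trimmed cells. Osteoclast markers, which include the neutrophil gene Mmp9, were at 769 CPM in TS and 739 CPM in NTS. Of the endothelial, mural, eosinophil, mast, keratinocyte and platelet lists the mural one was highest, at 73.2 CPM in TS and 222 CPM in NTS. Erythroid markers were at 993 CPM with tail suspension and 7.28 CPM without, with a median of 0 per cell in both libraries. In the cells under the S100 limit they were at 1075 CPM in TS and 111 CPM in NTS, so the order was the same there. The part of any of these in the results below was not tested.

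Of 10548 genes with at least 20 UMIs in the class, 2365 (22.4%) were at least 2-fold higher with tail suspension and 785 (7.44%) at least 2-fold lower. In the trimmed cells, of 7324 genes, 582 (7.95%) were higher and 838 (11.4%) lower. The balance of higher and lower genes thus turned with the deep and fibroblast-marked cells. Over all measured genes the log2 ratio, TS over NTS, had a median of 0.29, and of -0.09 in the trimmed cells. With median-of-ratios scaling, which sets the typical gene to no change and shifts every log2 ratio down by 0.29, the split was 1592 higher and 1344 lower. Log2 ratios below are on the CPM scale.

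The genes with the most extreme ratios, chosen by a fixed rule, kept their direction in the trimmed cells, 12 of 12 on each side. The TS levels of most of the highest ones dropped there. Of the 12 highest, 11 were genes whose level in the class was below that in the cells under the S100 limit, among them the matrix protease Mmp3, the collagen gene Col6a2 and the extracellular superoxide dismutase Sod3. Of the 12, 11 remained at least 2-fold higher in the trimmed cells, where the TS level of 10 was under 0.5 of that in all class cells. Mmp3, which did not remain 2-fold higher, was at 594 CPM with tail suspension and 85.7 CPM without, and at 65.3 CPM in TS and 39.3 CPM in NTS in the trimmed cells. Of these 12, only the stefin gene Stfa3 was also among the 12 highest of the trimmed cells. The 12 lowest were led by Ly6i (log2 ratio -5.31), Gbp4 (-5.05) and Ifi47 (-4.28), and 12 of 12 remained at least 2-fold lower in the trimmed cells, where 9 of them were again among the 12 lowest. Ly6i, Gbp2 and Gbp2b have close paralogs that the counting may split, so their levels are less certain.

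**Figure D2:**
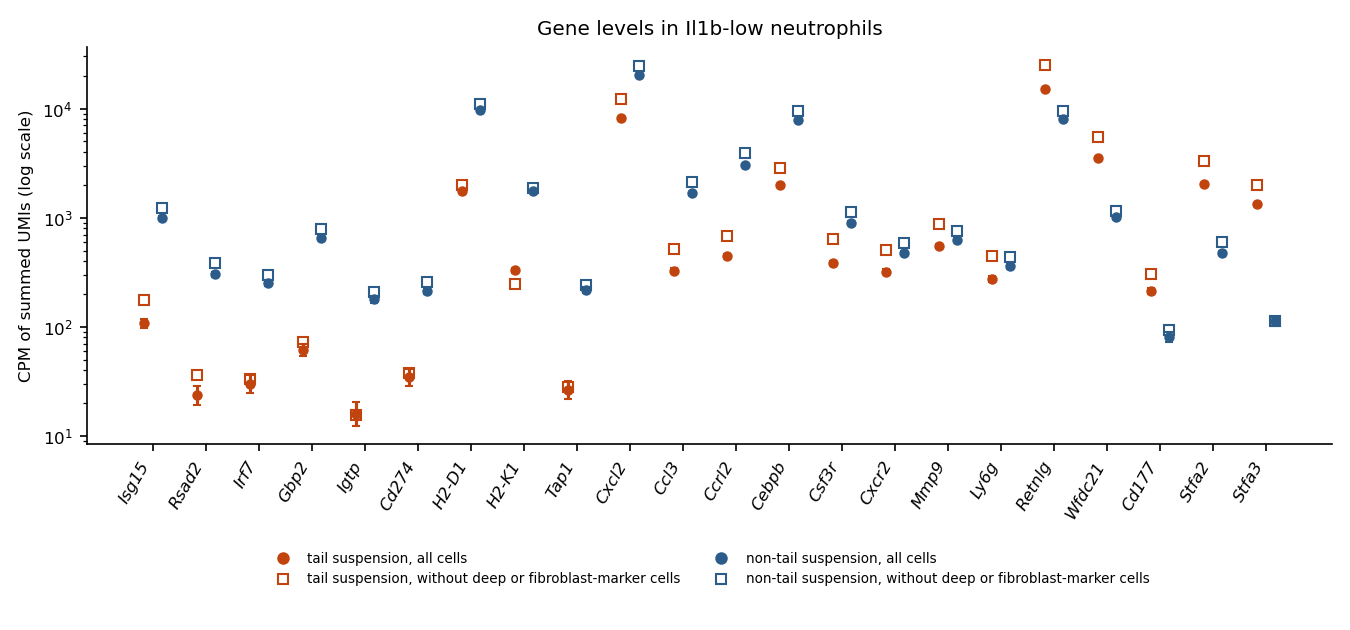
Level of selected genes (CPM of summed UMIs, log scale) in Il1b-low neutrophils with tail suspension (orange, left of each pair) and without (blue, right). Filled points are all class cells with exact 95% Poisson intervals, and open squares are cells with at most 10000 UMIs and at most 1% fibroblast markers. From Isg15 to Csf3r the tail suspension values lie below the non-tail suspension values, and from Retnlg to Stfa3 they lie above, in both sets of cells.

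Most interferon-stimulated genes were lower with tail suspension. Of 39 measured genes of the antiviral list, 33 were at least 2-fold lower with tail suspension, none was 2-fold higher, and the median log2 ratio was -2.02. In the trimmed cells 29 of 37 were lower, 1 was higher and the median was -2.18. Over all measured genes 7.44% were at least 2-fold lower and 22.4% higher, and 11.4% and 7.95% in the trimmed cells. Isg15, a ubiquitin-like modifier, was at 107 CPM with tail suspension and 1003 CPM without, a log2 ratio of -3.22 (-3.37 to -3.08), and at 175.5 CPM in TS and 1226 CPM in NTS in the trimmed cells. Rsad2, the antiviral enzyme viperin, was at 23.7 CPM with tail suspension and 302.5 CPM without. Irf7, the factor that amplifies interferon responses, was at 29.98 CPM in TS and 252 CPM in NTS. The RNA-binding Ifit1 was at 13.7 CPM in TS and 116 CPM in NTS. In cells thinned to 500 UMIs, Isg15 had a UMI in 6.60% of class cells with tail suspension and in 35.7% without, against 1.04% of TS cells and 8.76% of NTS cells under the S100 limit. A few members stood at like levels, and Ifitm1, a membrane protein that blocks viral entry, was at 2588 CPM with tail suspension and 2718 CPM without (log2 ratio -0.07, and 0.37 in the trimmed cells).

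Targets of interferon gamma were lower as well. None of 22 measured members was 2-fold higher and 17 were 2-fold lower, with a median of -2.60. In the trimmed cells 20 of 21 were lower with a median of -2.86. The share of all genes that were lower was 7.44%, and 11.4% in the trimmed cells. Gbp2, a guanylate-binding GTPase, was at 61.2 CPM with tail suspension and 654 CPM without, a log2 ratio of -3.42 (-3.61 to -3.23). Igtp, an immunity-related GTPase that acts on vacuoles of intracellular parasites, was at 15.99 CPM in TS and 178 CPM in NTS. Gbp7, of the same GTPase family as Gbp2, was at 42.7 CPM in TS and 254 CPM in NTS. Cd274, the checkpoint ligand PD-L1, was at 34.5 CPM in TS and 214 CPM in NTS. Irf1, a factor of the same pathway, differed less, at 90.0 CPM in TS and 248 CPM in NTS. The levels were so low with tail suspension that Igtp was detected in 6.76% of class cells, against 38.2% without. In cells under the S100 limit the list summed to 525 CPM in TS and 1635 CPM in NTS, so the order was the same there.

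The motif letters concerned occur in the promoters of some genes of these lists. Each sequence is the 250 bases before the annotated start of a gene in RefSeq on GRCm38.p6, 5′ to 3′ in the gene's direction. Capitals mark matches to the core of the interferon-stimulated response element, GAAANNGAA, or to the gamma-activated site, TTCNNNGAA, on either strand. Isg15 and Rsad2 are examples from the antiviral list and Igtp and Gbp7 from the interferon gamma list. Each of them holds a match to the response element core, while 36.8% of the antiviral promoters do. Stfa3 is the named gene with the highest ratio.
Isg15 (chr4:156200819-156201068, minus strand): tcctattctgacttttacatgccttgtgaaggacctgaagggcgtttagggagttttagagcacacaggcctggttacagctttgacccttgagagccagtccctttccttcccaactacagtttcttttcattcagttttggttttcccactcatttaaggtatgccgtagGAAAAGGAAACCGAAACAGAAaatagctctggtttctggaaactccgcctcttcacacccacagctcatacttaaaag
Rsad2 (chr12:26456453-26456702, minus strand): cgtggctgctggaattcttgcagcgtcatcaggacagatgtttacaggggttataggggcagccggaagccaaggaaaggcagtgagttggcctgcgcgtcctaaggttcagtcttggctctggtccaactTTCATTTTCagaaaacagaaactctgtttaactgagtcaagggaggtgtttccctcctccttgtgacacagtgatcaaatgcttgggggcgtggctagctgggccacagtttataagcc
Igtp (chr11:58199306-58199555, plus strand): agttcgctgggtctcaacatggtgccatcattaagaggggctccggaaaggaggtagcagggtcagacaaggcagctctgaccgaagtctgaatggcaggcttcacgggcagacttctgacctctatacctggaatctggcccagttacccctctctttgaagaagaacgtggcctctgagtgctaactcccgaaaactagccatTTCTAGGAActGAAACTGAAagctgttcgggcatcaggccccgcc
Gbp7 (chr3:142530086-142530335, plus strand): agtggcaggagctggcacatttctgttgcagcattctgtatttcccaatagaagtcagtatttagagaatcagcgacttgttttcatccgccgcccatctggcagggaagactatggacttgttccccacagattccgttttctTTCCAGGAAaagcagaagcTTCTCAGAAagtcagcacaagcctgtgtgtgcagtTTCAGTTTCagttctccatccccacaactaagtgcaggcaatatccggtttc
Stfa3 (chr16:36455393-36455642, minus strand): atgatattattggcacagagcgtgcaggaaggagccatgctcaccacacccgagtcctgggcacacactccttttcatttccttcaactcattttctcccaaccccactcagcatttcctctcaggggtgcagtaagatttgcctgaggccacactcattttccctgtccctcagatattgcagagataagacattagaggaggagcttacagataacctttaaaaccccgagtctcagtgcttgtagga

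Isg15 has 3 overlapping matches to the response element, which begin 78, 72 and 66 bases before the start. Rsad2 has 1 at 119 bases, on the strand opposite to the printed one. Igtp has 1 at 34 bases with a gamma-activated site at 45 bases. Gbp7 has 1 at 52 bases, also on the opposite strand, with gamma-activated sites at 106 and 87 bases. Neither set of letters is in the Stfa3 window, which says nothing of the factors. Of all 32851 promoters of that length, 7.13% hold the response element core and 7.02% the gamma-activated site. Of 38 promoters of 32 antiviral genes, 36.8% hold the response element core and 10.5% the gamma-activated site. Of 18 promoters of 15 interferon gamma genes, 66.7% and 44.4% do. The shares were 18.2% and 9.09% for MHC class I genes and 7.14% and 21.4% for NF-kB genes. They were 8.33% and 16.7% for specific granule genes and 0% and 10% for S100 and stefin A genes. The gamma-activated site was thus more frequent in the NF-kB and specific granule lists than in the antiviral list. A match is a description of sequence and not of binding.

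Antigen presentation genes of class I, the molecules that show cytosolic peptides to T cells, were mostly lower. Of 21 measured members 16 were at least 2-fold lower with tail suspension and none higher, beside 7.44% lower and 22.4% higher over all genes. The median was -2.40 in all class cells and in the trimmed cells. H2-D1, a heavy chain gene, was at 1770 CPM with tail suspension and 9692 CPM without, and H2-K1 at 329 CPM in TS and 1741 CPM in NTS. The light chain gene B2m was at 953 CPM in TS and 3069 CPM in NTS. H2-D1 was detected in 98.7% of class cells with tail suspension and in every cell without, so the gap lay in the level per cell. The peptide transporter Tap1 was at 26.5 CPM with tail suspension and 220 CPM without, and the immunoproteasome subunit Psmb8 was at 87.0 CPM in TS and 514 CPM in NTS. The H2 genes are similar in sequence and their counts may be split. The difference was not particular to the class. In Il1b-high cells 16 of 21 members were at least 2-fold lower with tail suspension, with a median of -1.82, beside 10.1% of all genes there. In cells under the S100 limit the list summed to 6028 CPM in TS and 15748 CPM in NTS.

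Cxcl2 and other chemokines of activated neutrophils were lower with tail suspension, while Il6, Ccl2 and Cxcl1 were higher in all class cells. Of 23 measured cytokine and chemokine genes 11 were lower and 4 higher, with a median of -0.82 (11 lower and 2 higher of 22 in the trimmed cells). Over all genes 7.44% were lower and 22.4% higher, and 11.4% and 7.95% in the trimmed cells. The count of higher members is thus near the share of all genes. Cxcl2, which draws further neutrophils, was at 8236 CPM with tail suspension and 20145 CPM without, and the monocyte attractant Ccl3 was at 326 CPM in TS and 1686 CPM in NTS. Ccl4, its close relative, was at 200.1 CPM in TS and 1021 CPM in NTS. Il6 was at 173 CPM with tail suspension and 32.2 CPM without, but at 33.45 CPM in TS and 6.24 CPM in NTS in the trimmed cells, and in cells under the S100 limit it was at 426 CPM in TS and 106 CPM in NTS. Ccl2, a monocyte attractant, was at 919 CPM in TS and 195 CPM in NTS, and at 175.5 CPM in TS and 77.1 CPM in NTS in the trimmed cells. The neutrophil attractant Cxcl1 was at 1367 CPM in TS and 616 CPM in NTS, and at 302 CPM in TS and 260 CPM in NTS in the trimmed cells, so its difference was no longer 2-fold there. Among other members of the interleukin 1 family, the receptor antagonist Il1rn was at 135 CPM with tail suspension and 548 CPM without, and the decoy receptor Il1r2 at 732 CPM in TS and 1692 CPM in NTS.

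Chemoattractant receptors were lower or less than 2-fold apart. Of 15 measured chemoattractant receptors 7 were at least 2-fold lower and none higher (median -0.91, and -0.62 in the trimmed cells). Over all genes 7.44% were lower and 22.4% higher. The chemerin-binding receptor Ccrl2 was at 447 CPM with tail suspension and 3060 CPM without, the chemokine receptor Ccr1 at 295 CPM in TS and 1122 CPM in NTS, and the complement receptor C5ar1 at 301 CPM in TS and 803 CPM in NTS. Cxcr2 was at 321 CPM in TS and 477 CPM in NTS (log2 ratio -0.57), and at 507 CPM in TS and 590 CPM in NTS in the trimmed cells (-0.22). Csf3r, the receptor of the growth factor that sustains neutrophils, was at 385 CPM with tail suspension and 901 CPM without (-1.23), and at 634 CPM in TS and 1128 CPM in NTS in the trimmed cells (-0.83). Its difference was thus no longer 2-fold in the trimmed cells, and that of Cxcr2 was small in both.

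NF-kB genes, survival genes and sensors of microbes showed no 2-fold higher member. Lower members numbered 14 of 25 for NF-kB response and feedback genes (median -1.09), 12 of 21 for survival and cell death genes (-1.06) and 10 of 20 for pattern recognition genes (-0.95). For these and the lists that follow, 7.44% of all genes were lower and 22.4% higher. The NF-kB inhibitor gene Nfkbia was at 1935 CPM with tail suspension and 5638 CPM without, and the anti-apoptotic Mcl1 at 1113 CPM in TS and 2653 CPM in NTS. Cd14, the co-receptor for lipopolysaccharide, was at 1249 CPM in TS and 4490 CPM in NTS, and Tlr2 at 194 CPM in TS and 519 CPM in NTS. Cebpb, a transcription factor of emergency granulopoiesis and inflammation, was at 1972 CPM with tail suspension and 7814 CPM without, and Pim1, a kinase induced by cytokine receptors, at 701 CPM in TS and 2550 CPM in NTS. Among Fc and lectin receptors 7 of 22 were lower, with the activating receptor Trem1 at 525 CPM in TS and 1619 CPM in NTS. In glycolysis and hypoxia genes 10 of 27 were lower and 1 higher, with a median of -0.77.

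Several stefin genes were higher with tail suspension. The 12 measured S100 and stefin A genes outside the rule had 5 members at least 2-fold higher and none lower, with a median of 0.82, beside 22.4% higher and a median of 0.29 over all genes. Among trimmed cells 6 of 12 were higher with a median of 1.02, beside 7.95% and -0.09 over all genes. Stfa3, a cystatin-type protease inhibitor, was at 1333 CPM with tail suspension and 113 CPM without, a log2 ratio of 3.57 (3.43 to 3.70), and at 2008 CPM in TS and 112 CPM in NTS in the trimmed cells. It was detected in 43.6% of class cells with tail suspension and in 10.1% without. Stfa2 was at 2052 CPM in TS and 474 CPM in NTS, and Cstdc5 at 8334 CPM in TS and 2107 CPM in NTS. Stefin A genes are near-identical copies, so the split of reads among them is uncertain. In immature cells Stfa3 was at 2862 CPM with tail suspension and 458 CPM without, so it was higher there too.

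The list of specific granule and immature-stage genes outside the rule held 5 of 15 genes that were higher and 1 lower, with a median of 0.45, which is near the share (22.4%) and median (0.29) of all genes. In the trimmed cells 6 of 12 were higher and none lower, with a median of 0.996, beside 7.95% and -0.09 over all genes. Beside this list stands the granule content of the class itself: a Camp, Ngp or Ltf UMI was found in 358 of 636 TS cells and in 245 of 1030 NTS cells, and its part in the result was not tested. Wfdc21, a small secreted whey acidic protein, was at 3500 CPM with tail suspension and 1011 CPM without, and at 5523 CPM in TS and 1141 CPM in NTS in the trimmed cells. The surface protein Cd177 was at 212 CPM in TS and 81.0 CPM in NTS, and Olfm4, olfactomedin of specific granules, at 159 CPM in TS and 62.7 CPM in NTS. Retnlg was at 15059.6 CPM with tail suspension and 8023 CPM without (log2 ratio 0.91), and at 25015 CPM in TS and 9564 CPM in NTS in the trimmed cells (1.39). Ly6g, the surface antigen used to define mouse neutrophils, was at 276 CPM in TS and 359 CPM in NTS (-0.38), and at 443 CPM in TS and 435 CPM in NTS in the trimmed cells (0.03). The gelatinase granule gene Mmp9 was at 550 CPM in TS and 622 CPM in NTS (-0.18), and at 882 CPM in TS and 759 CPM in NTS in the trimmed cells (0.22). Retnlg, Wfdc21, Cd177 and Olfm4 therefore differed in 1 direction in both sets of cells, and the directions of Ly6g and Mmp9 depended on the cells kept.

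The other lists had fewer members past 2-fold or depended on the cells kept. Over all genes 7.44% were lower and 22.4% higher, with a median of 0.29. Among AP-1 and immediate-early genes 11 of 23 were lower and 1 higher (median -0.91), and among genes reported in mouse tissue and tumour neutrophils 9 of 19 lower and 1 higher (-0.88). Transcription factors of granulocyte maturation had 6 of 17 lower (-0.73), growth factor signalling genes 4 of 15 (-0.63), and interleukin 1 family genes other than Il1b 4 of 10 lower and 2 higher (-0.77). Actin and migration genes had 2 of 23 members lower (median -0.41), adhesion and rolling genes 2 of 16 (-0.35), and NADPH oxidase, redox and extracellular trap genes 1 of 19 lower and 1 higher (-0.30). Their counts of lower members are near the share of all genes. Neutrophil integrin Itgam was at 202 CPM with tail suspension and 249.5 CPM without, and the oxidase subunit Ncf1 at 253 CPM in TS and 311 CPM in NTS. Cell cycle genes had no 2-fold member among 19 and a median of 0.03, and eicosanoid genes 4 of 14 higher and 1 lower (-0.05). Glucocorticoid-responsive genes had 3 of 13 higher and 3 lower (-0.07), and gelatinase granule and late-stage genes 3 of 13 lower (-0.38). The sign of these 4 medians changed in some of the settings tried. Higher members of the eicosanoid and glucocorticoid lists are near the share of all genes. Azurophil granule genes had 6 of 10 lower and a median of -1.71, and 3 of 8 with -0.76 in the trimmed cells. Elane, neutrophil elastase, was at 27.0 CPM with tail suspension and 191 CPM without, but at 2.57 CPM in TS and 8.74 CPM in NTS in the trimmed cells, so its UMIs lay mostly in cells left out by trimming.

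**Figure D3:**
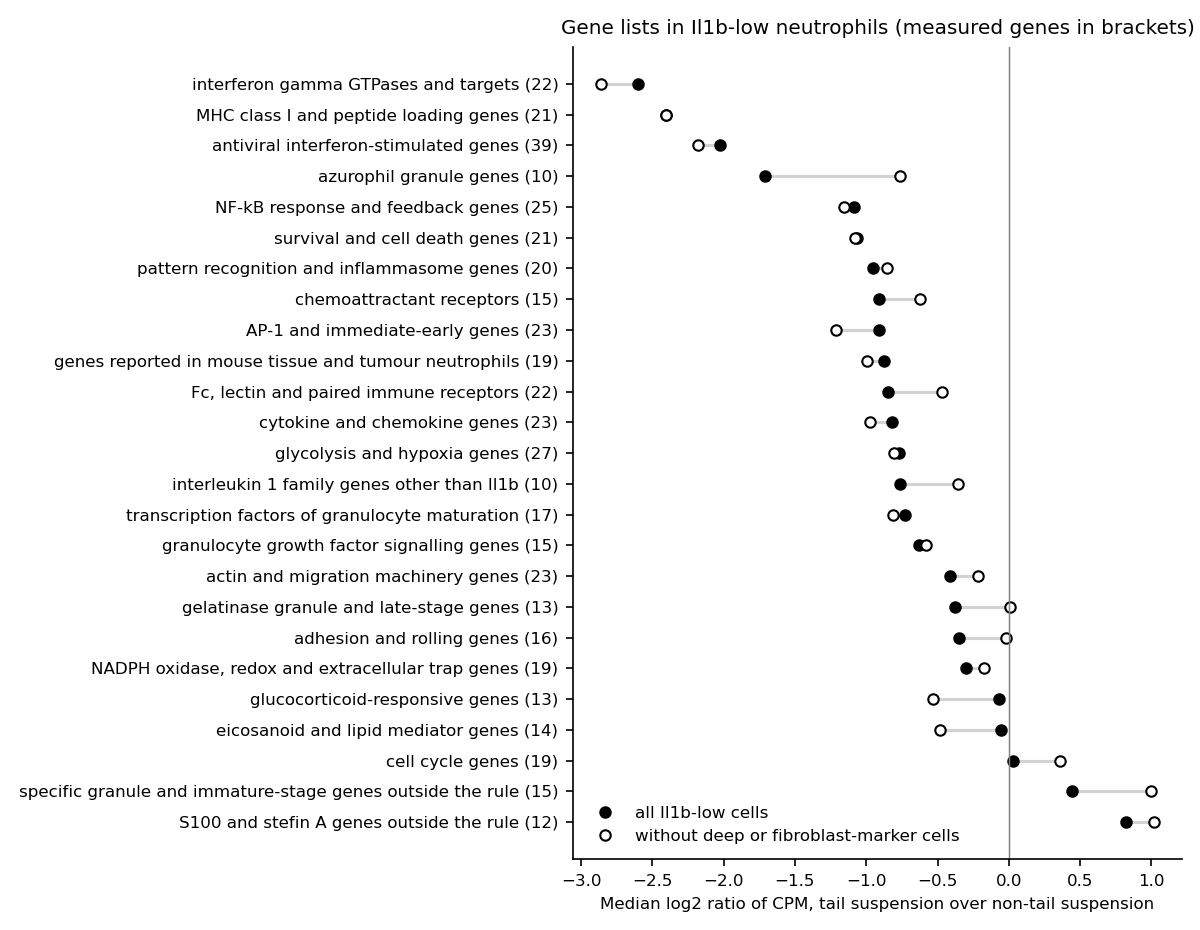
Median log2 ratio of CPM, tail suspension over non-tail suspension, of 25 gene lists in Il1b-low neutrophils, with the number of measured genes in brackets. Filled points are all class cells and open points are cells with at most 10000 UMIs and at most 1% fibroblast markers. The interferon gamma, MHC class I and antiviral lists have the lowest medians, from -2.60 to -2.02 in all class cells, and the S100 and stefin A list the highest, 0.82.

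Because the class is cut from a continuous Il1b scale, mature neutrophils were also read in 6 bins of Il1b, in trimmed cells. With no Il1b UMI, Isg15 was at 101 CPM with tail suspension and 756 CPM without. Between 0.25% and 0.5% it was at 238 CPM in TS and 1271 CPM in NTS, and at 1% and over, outside the class, at 380 CPM in TS and 1508 CPM in NTS. The highest TS value of Isg15, 518 CPM in the bin of 0.5% to 1%, lay below the lowest NTS value, 756 CPM. H2-D1 ran between 1707 and 2726 CPM with tail suspension and between 10172 and 12421 CPM without, so its bins did not overlap either. The gaps were thus present within every bin of Il1b. Over the same bins the fibroblast markers summed to between 2423 and 5096 CPM with tail suspension and between 1219 and 1531 CPM without.

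Cxcl2 and Ccrl2 were higher, and Retnlg lower, at the upper end of the Il1b scale in both libraries. Cxcl2 was at 6141 CPM with no Il1b UMI and 41302 CPM at 1% and over with tail suspension, and at 17224 and 34846 CPM without. Its order between the libraries turned in the highest bin. Ccrl2 was at 152 and 3886 CPM at these ends of the scale with tail suspension, and at 2968 and 6757 CPM without. Retnlg was at 34446 CPM with no Il1b UMI and 6732 CPM at 1% and over with tail suspension, and at 14123 and 2950 CPM without. In Retnlg and Wfdc21 the tail suspension library was higher in all 6 bins, and in Mmp8, a collagenase of neutrophil granules, in the 4 bins under 0.5%. The end bins are small, with 31 cells with tail suspension and 20 without at no Il1b UMI.

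**Figure D4:**
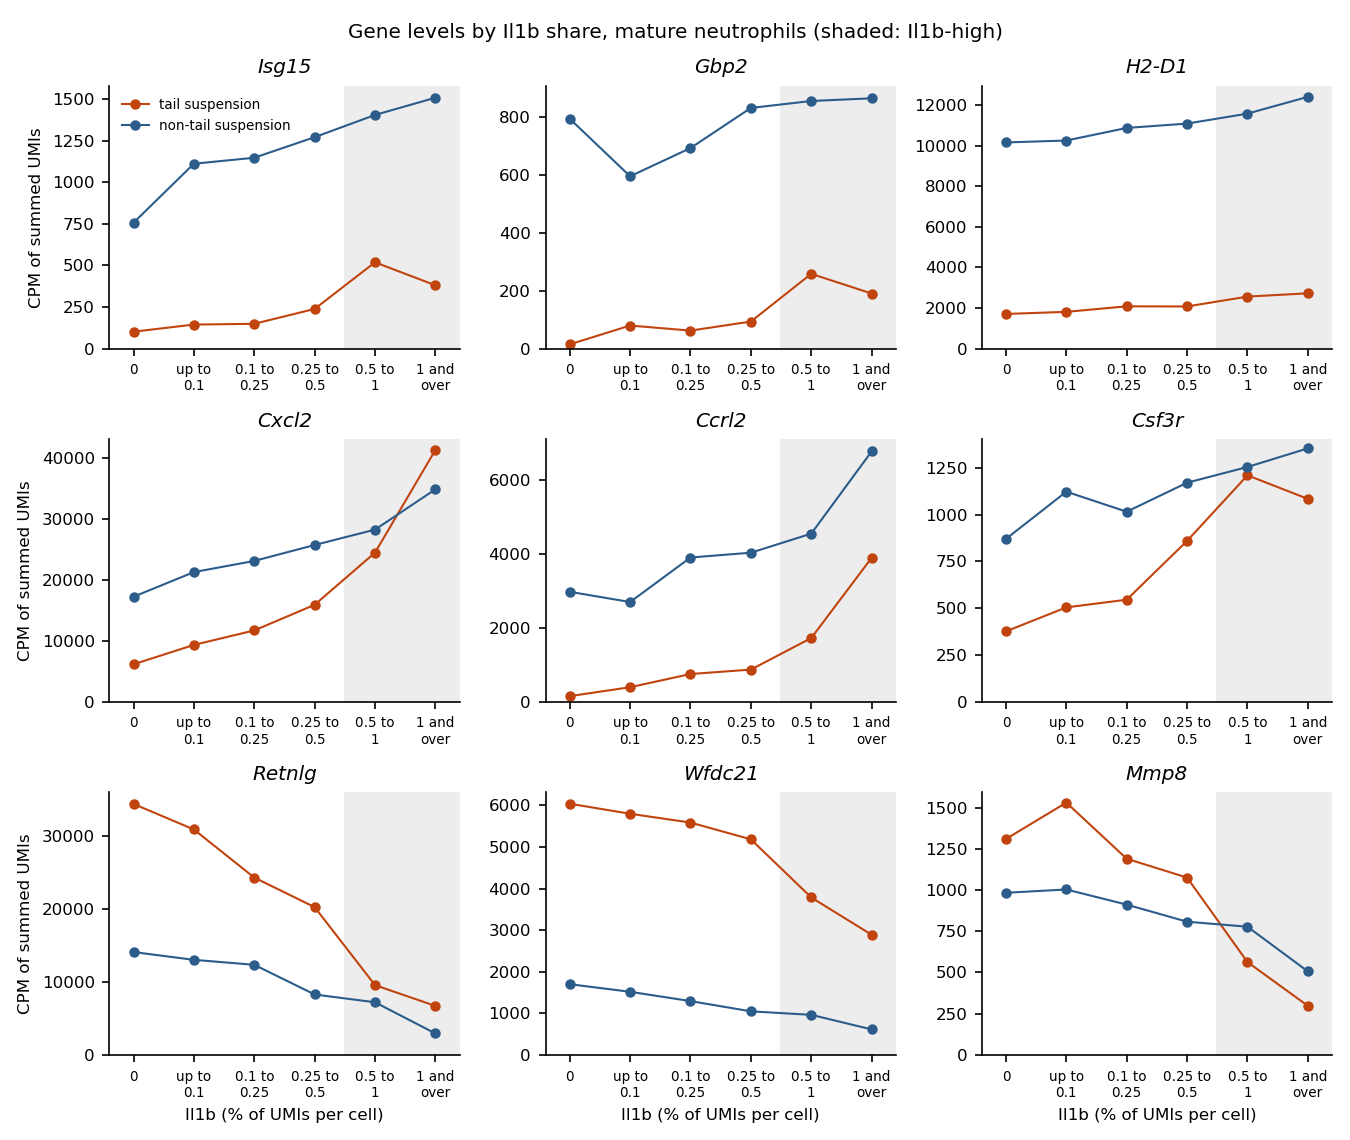
Level of 9 genes (CPM of summed UMIs, linear axes from 0) in 6 bins of Il1b (% of UMIs per cell), in mature neutrophils with at most 10000 UMIs and at most 1% fibroblast markers, with tail suspension (orange) and without (blue). The shaded bins are Il1b-high cells, outside the class. Isg15, Gbp2 and H2-D1 stay apart in every bin, whereas the Cxcl2 lines cross, with 41302 CPM with tail suspension and 34846 CPM without in the highest bin.

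The S100 scale gave the same order for these interferon targets. In trimmed class cells with at least 20% S100a8 and S100a9, 393 with tail suspension and 279 without, Isg15 was at 174 CPM in TS and 1173 CPM in NTS. In the cells between 10% and 20%, 58 with tail suspension and 355 without, it was at 206 CPM in TS and 1286 CPM in NTS. H2-D1 was at 1852 CPM with tail suspension and 8398 CPM without in the highest bin, and at 2537 CPM in TS and 11866 CPM in NTS between 10% and 20%. Retnlg was highest in the top bin of both libraries, at 28194 CPM with tail suspension and 18597 CPM without. The bin under 5% held 10 tail suspension cells and is not read.

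Il1b-high neutrophils of the same libraries gave the comparison closest to the class, and since the rule separates them by Il1b it is a description. In all cells, 2031 of 8854 genes (22.9%) were at least 2-fold higher in the Il1b-low class in both libraries and 9 (0.102%) lower. In the trimmed cells 37 of 5715 (0.647%) were higher and 2 (0.035%) lower. The rule genes were not taken out of these counts, and a lower Il1b follows from the rule. The higher genes of the full class included the fibroblast markers, 9 of 10, and cell cycle genes, 14 of 19, and none of either list in the trimmed cells. They also included granulocyte progenitor markers, 4 of 4, and azurophil granule genes, 5 of 8, lists that share members. In the trimmed cells these were 0 of 1 and 0 of 5. Trimmed Il1b-low cells had more Prok2, a chemoattractant peptide of granulocytes, at 183 CPM against 47.7 CPM in Il1b-high cells with tail suspension and at 136 against 49.0 CPM without. Cd177 was at 307 against 72.3 CPM in TS and at 93.0 against 41.1 CPM in NTS. Ly6g was at 443 against 189 CPM in TS and at 435 against 277 CPM in NTS. T or innate lymphoid markers were also higher, with 4 of 5 in the trimmed cells.

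The named genes with less RNA in trimmed Il1b-low cells included genes of inflammatory activation, with differences under 2-fold in NTS. Ptgs2, the inducible cyclooxygenase, was at 94.2 CPM against 374 CPM in Il1b-high cells with tail suspension, and at 297 against 584 CPM without. Cxcl3, a chemokine close to Cxcl2, was at 190 against 768 CPM in TS and at 744 against 1217 CPM in NTS. Tnfaip3, a brake on NF-kB, was at 282.5 against 585 CPM in TS and at 509 against 780.4 CPM in NTS. The antiviral list had a trimmed median of -0.87 with tail suspension and -0.14 without, and the interferon gamma list -1.47 in TS and -0.24 in NTS, beside -0.09 in TS and 0.01 in NTS for all measured genes. Between the libraries, Il1b-high cells had 25 of 39 antiviral genes at least 2-fold lower with tail suspension, with a median of -1.31, and 18 of 22 interferon gamma genes, with -1.87. Over the 8548 genes measured there 10.1% were at least 2-fold lower and the median was 0.02. The difference between the classes was not tested.

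Against immature neutrophils, which the rule separates by Camp, Ngp and Ltf, 874 of 9188 genes (9.51%) were at least 2-fold higher in the Il1b-low class in both libraries and 287 (3.12%) lower. In the trimmed cells these were 560 of 6094 (9.19%) and 170 (2.79%). Here too the rule genes were not taken out, and lower Camp, Ngp and Ltf follow from the rule. Interferon gamma targets were 17 of 19 higher and antiviral genes 21 of 34, and 10 of 10 and 16 of 28 in the trimmed cells. Gbp2 was at 61.2 CPM against 8.11 CPM in immature cells with tail suspension, and at 654 against 54.6 CPM without. Wfdc17, a whey acidic protein of activated phagocytes, was at 5707 against 605 CPM in TS and at 4078 against 373 CPM in NTS. Specific granule genes outside the rule were lower for 10 of 15, and 11 of 15 in the trimmed cells. Fcnb, a ficolin made by granulocyte precursors, was at 7.75 CPM against 226 CPM in immature cells with tail suspension and at 19.5 against 334 CPM without. Serpinb1a, an inhibitor of granule proteases, was at 55.97 against 409 CPM in TS and at 41.1 against 735 CPM in NTS.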

How the data were processed

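Deposited files were 10x matrices of UMI counts per gene and barcode, 1 library per group, which the authors made; no normalization was found. Cell Ranger 5.0.1 and GRCm38 are named in the submitters' processing notes, and the deposited matrix headers give software_version 3.1.0. The class rule, gene lists and markers were chosen with earlier results of these data known. UMIs were summed per class and library, with Python 3.11.15, NumPy 2.4.6, SciPy 1.17.1 and pandas 2.3.3. CPM carry exact Poisson intervals, shares Clopper-Pearson intervals and ratios exact conditional binomial intervals. UMIs are counting units, so intervals cover counting error only; there are no replicates and hence no p-values. A gene with at least 20 UMIs over both libraries counted as measured, "2-fold" means a log2 ratio of at least 1 in size, and 0 UMIs were set to 3.

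Doublets were scored with Scrublet in scanpy 1.11.5 and kept. Its automatic threshold called 492 cells with tail suspension and 0 without, so it did not work there, and instead the highest scores were left out as an alternative, at the expected rates of 12.4% and 9.14%. Named genes were the 12 largest ratios in each direction (8 for each comparison of classes) with at least 100 UMIs that reached 50 CPM and were detected in 10% of cells in the library with the higher level. In that library the class level had to be at least 0.5 of that in cells under the S100 limit, and the sign had to hold with median-of-ratios scaling and in cells thinned to 500 UMIs. Mitochondrial, ribosomal protein, haemoglobin, predicted and rule genes and other cells' markers were left out. Besides, the 5 markers and examples of each list were named, some of them after their values were seen. The 25 lists were taken by symbol, with older symbols matched through RefSeq. The ratio step was tested on simulated counts of 10563 genes, where 100% of 200 changed genes were recovered and 1.80% of unchanged genes passed 2-fold. Spread between animals is not known, so the simulation does not measure it. The 1.80% is therefore not an error rate for the genes counted above. Alternatives moved each limit of the rule, depth, scaling, gene minimum and doublet handling.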

Additional observations from a re-analysis of the deposited data

Results flagged for a closer look

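The medians of 3 lists were of opposite sign in Il1b-low and Il1b-high neutrophils, tail suspension over non-tail suspension. Interleukin 1 family genes other than Il1b had a median log2 ratio of -0.767 in Il1b-low and 0.0381 in Il1b-high cells. Eicosanoid and lipid mediator genes had -0.0525 in Il1b-low and 0.0294 in Il1b-high cells, and glucocorticoid-responsive genes -0.0714 and 0.0408. The difference was not tested in any of the 3, since each group is 1 library. The eicosanoid and glucocorticoid pairs are near 0, and so is the Il1b-high median of the interleukin 1 list. In the settings tried, the Il1b-low median of that list reached -0.0096 at its highest. Over all measured genes the median was 0.29 in Il1b-low and 0.02 in Il1b-high cells.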

How the results depend on the processing

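No paired analysis was possible because each group has 1 library. None of the 12 highest and 12 lowest genes changed sign under the alternatives run. Their choice already required the sign to hold with median-of-ratios scaling and with the stronger thinning, and took the largest ratios. For these settings the result was fixed in advance, and the others mostly reuse the same cells. The absence of sign changes is thus no independent check of direction. Of the values of these genes 134 moved and 322 stayed close, and Mmp3 ranged from 0.70 to 3.53. Ifitm1, Ly6g and Mmp9 changed sign in the trimmed cells. Of list medians 434 values stayed close and 41 moved, and 4 of 25 lists (cell cycle, eicosanoid, gelatinase granule and glucocorticoid) changed sign in some setting. The antiviral median ranged from -2.31 to -1.63 and the interferon gamma median from -2.95 to -2.21. The causes of the changes below were not tested.

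Genes at least 2-fold higher with tail suspension (2365) numbered 1390 with Il1b under 0.25%, 3851 under 1%, 657 without the highest Scrublet scores, 1128 without cells over 10000 UMIs, 736 without cells over 1% fibroblast markers, 582 without both, 436 in cells thinned to 500 UMIs, 690 thinned to 1000, 4520 with at least 1 UMI and 920 with at least 100. Lower genes (785) numbered 1344 with median-of-ratios scaling, 516 thinned to 500, 2273 with at least 1 UMI and 508 with at least 100.

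The share of kept cells with tail suspension (4.39%) was 2.91% and 5.75% with the 2 Il1b limits, 3.58% with S100 of at least 10%, 3.83% and 5.10% with granule limits of 0.25% and 1%, 3.20% with no C1q UMI, and 6.64%, 7.61% and 9.90% without deep, fibroblast-marked or both kinds of cells. Without suspension (9.41%) it was 2.95%, 23.5%, 8.30% (S100 of at least 5%), 5.86% (at least 10%), 6.08% (no C1q UMI), 14.4%, 11.5% and 14.8%. Among mature neutrophils with tail suspension (70.0%) it was 46.3% and 91.6% with the Il1b limits, 65.8% without high Scrublet scores, and 66.9%, 66.8% and 65.1% without deep, fibroblast-marked or both. Without suspension (23.7%) it was 7.44% and 59.2%, 25.5% with S100 of at least 10% and 30.1% thinned to 500.

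Genes higher than in Il1b-high cells (2031) numbered 379 with Il1b under 1%, 816 and 51 with S100 of at least 5% and 10%, 1281 with no C1q UMI, 474 without high Scrublet scores, and 59, 644 and 37 without deep, fibroblast-marked or both; lower genes (9) numbered 86 with Il1b under 0.25%, 4 with no C1q UMI, and 3, 5 and 2. Against immature cells, higher genes (874) numbered 582 with S100 of at least 10% and 560 without both, and lower genes (287) 188 with Il1b under 0.25%, 573 with S100 of at least 10%, 172 without deep cells and 170 without both.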
